A study of Mus musculus with 12 samples.

Results

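Short active H3K4me3 regions are stretches below 5000 bp that carried H3K4me3 and H3K27ac and no H3K27me3 in the female KDM6A-WT line of a mouse pancreatic cancer series. H3K4me3 is the methyl mark laid over transcription starts, and H3K27ac is the acetyl mark of promoters and enhancers in use. H3K27me3, the mark of Polycomb repression, competes with H3K27ac for the same lysine. Of the 24492 listed H3K4me3 regions, 21068 were shorter than the limit, 16872 of those met an H3K27ac region by at least 1 bp, and 15218 of those met no H3K27me3 region. The members were thus chosen by length and by the H3K4me3, H3K27ac and H3K27me3 lists of that line. They made up 62.1% of the H3K4me3 list. They covered 40.0 Mb of sequence and held 48.9% of the reads counted in H3K4me3 regions.

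The series compared cell lines labelled KDM6A-KO and KDM6A-WT by chromatin immunoprecipitation with sequencing. The lists used here came from the female KO and WT lines for H3K4me1, KDM6A and MLL4, from the male KO and WT lines for H3K4me1, and, in the female WT line alone, from H3K4me3, H3K27ac and H3K27me3. All lines grew in F12/DMEM with EGF and were not treated. Every label, that of the WT lines included, describes a line from a tumour null for the gene, so KO and WT are used as the genotype field gives them. The KDM6A antibody gave more regions in the line labelled KO (5961) than in the line labelled WT (2847), which goes against a label that says its target is missing. KDM6A in KO therefore means here a region listed for that antibody in the line labelled KO. Each antibody, line and genotype had 1 library, so there is no replicate spread and no test between libraries. Brackets give exact Clopper-Pearson intervals at 95%. They count regions and cover counting error only, and regions under the same H3K4me1 stretch are not independent of each other.

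KDM6A is a demethylase that removes H3K27me3. It works in the complexes built around MLL3 and MLL4, the enzymes that place H3K4me1 at enhancers. At a strong promoter the nucleosomes next to the start carry H3K4me3, and H3K4me1 is pushed to the flanks. Enhancers more often carry a single H3K4me1 stretch with little or no H3K4me3. None of the H3K4me1, KDM6A or MLL4 lists entered the choice of the members. No gene annotation or genome of the mouse build mm9 was used here, so no member was tied to a gene or a transcription start, and whether each is a promoter was not examined.

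The members were of 2 kinds by H3K4me3 itself. Their H3K4me3 density, the reads in a region divided by its length, had a peak at 38.1 to 45.3 reads per kb with 1350 regions. A second peak lay at 304 to 362 reads per kb with 1773 regions, and the lowest point between the peaks, at 152 to 181 reads per kb, held 419. At 150 reads per kb, a limit set after these values were seen, the members parted into 6941 dense regions (45.6%) and 8277 faint regions (54.4%). Dense regions had a median of 308 reads per kb over a median of 3400 bp. Faint regions had a median of 51.5 reads per kb over 1800 bp, close to the 55 reads per kb of H3K4me3 regions without H3K27ac or H3K27me3. The dense members resembled in density the broad active regions of 5000 bp or more, which had a median of 322 reads per kb and were dense in 90.6% of cases. The faint members held 6.13% of all H3K4me3 reads and the dense members 42.7%. Between 100 and 200 reads per kb lay 1822 members (12%).

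**Figure D1:**
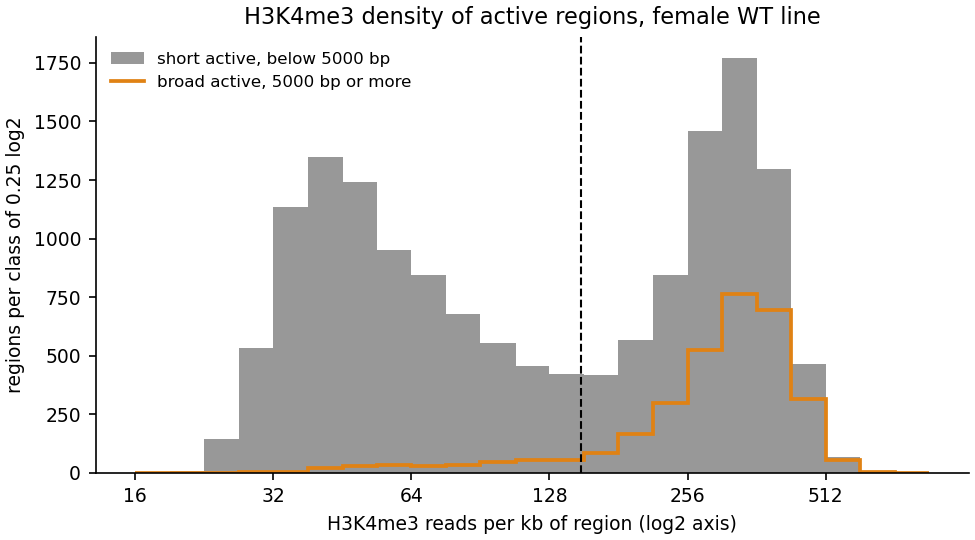
Number of regions (vertical axis) by H3K4me3 reads per kb (horizontal axis, log2) for short active regions (grey) and broad active regions of 5000 bp or more (orange line) in the female WT line; the dashed line marks 150 reads per kb. The short regions form 2 peaks, and most broad regions fall under the upper one.

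Acetylation differed between the kinds in extent. H3K27ac covered faint members from end to end in 86.9% of cases and dense members in 20.2%. The listed H3K27ac stretch over a faint member had a median span of 4200 bp, against 3000 bp over a dense one. Its density was a median of 48.9 reads per kb at faint members and 64 at dense members. Faint members also lay closer to other H3K4me3 regions: 36.1% had one within 5 kb, against 23.3% of dense members. H3K27ac and H3K4me3 chose the members, so these values only describe them.

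The length limit cut through a continuum. The 377 members of 4800 bp, the longest that the rule admits, had a median of 1535 H3K4me3 reads. The 354 active regions of 5000 bp, the shortest left out, had a median of 1658. Length and density went together among the members: 1.77% of those up to 1400 bp were dense and 86.8% of those from 4000 to 4800 bp.

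The 5 members with the most H3K4me3 reads were all dense and measured 4400 to 4800 bp. The leading one, on chromosome 15 from 79841401 to 79846200, held 3278 reads, or 683 per kb. H3K4me1 was listed there in all 4 lists. Next came chromosome 15, 36535601 to 36540400, with 2861 reads. The next was a member on chromosome 12, at 101436201 to 101440800, with 2817. The fourth, chromosome 10 from 26092201 to 26096800 with 2767 reads, had no H3K4me1 in the female WT list and had it in the other 3. None of the 5 had KDM6A or MLL4 in any list.

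H3K4me1 was listed at most members in every line. It met 85.2% [84.6 to 85.7] of the 15218 members in female KO and 87.8% [87.3 to 88.3] in female WT. In the male lines it met 94.8% [94.4 to 95.1] in KO and 89.8% [89.3 to 90.3] in WT. Most H3K4me3 regions as a whole, members included, were listed too. Their shares were 77.8% in female KO, 81.1% in female WT, 90.8% in male KO and 82.9% in male WT. The 4 lists named the same 10967 members (72.1%), and 115 members (0.756%) were in no list. Neither count was taken over all H3K4me3 regions. Of the broad active regions, 95.2% were in all 4 lists. Any single list left out between 5.23% and 14.8% of the members.

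In the female lines slightly fewer members carried H3K4me1 in KO than in WT, a difference of -2.60 percentage points [-3.27 to -1.93]. That difference depends on the overlap asked for: with at least 50% of the member covered it was -0.473 points [-1.23 to 0.289], an interval that holds 0. Among members below 3000 bp it was -4.60 points [-5.57 to -3.62]. In KO alone 1142 members were listed, or 7.50%, where 7.82% of all H3K4me3 regions were, members included. In WT alone 1538 members were listed, or 10.1%, where 11.2% of all H3K4me3 regions were. Both shares lay close to, and a little below, those of the whole H3K4me3 list. In the male lines the difference ran the other way, at 4.93 percentage points [4.41 to 5.45]. There 1326 members (8.71%) were listed in KO alone against 12.1% of all H3K4me3 regions, and 575 members (3.78%) in WT alone against 4.22%. Of the members with H3K4me1 in WT, 88.5% [87.9 to 89.0] had it in KO in the female lines and 95.8% [95.4 to 96.1] in the male lines. Over all H3K4me3 regions these kept shares were close, at 86.2% and 94.9%. Once the longer list of each pair, that of WT, was shortened to the number of regions of the KO list by keeping those with the most reads, the female difference turned to 11.2 points and the male one became 11.3 points.

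The KO lists of H3K4me1 were the shorter ones over the genome. Female KO held 35041 regions with 6639207 reads and female WT 56076 regions with 9956349 reads. Male KO held 49780 regions with 10809880 reads and male WT 64247 regions with 14411335 reads. A member was therefore set against a KO list with fewer regions in both sexes. No source used here states the depth of a library, so the part of depth in the differences cannot be told apart from that of the genotype.

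Dense and faint members, parted at 150 reads per kb, differed in the sign of the H3K4me1 difference, in both sexes. At dense members H3K4me1 was listed more often in KO, at 91.2% in female KO against 89.2% in female WT and at 97.5% in male KO against 84.7% in male WT. The differences were 2.07 points [1.24 to 2.90] and 12.7 points [12.2 to 13.2]. At faint members H3K4me1 was listed less often in KO, at 80.1% in female KO against 86.6% in female WT and at 92.5% in male KO against 94.1% in male WT. The differences there were -6.52 points [-7.49 to -5.54] and -1.61 points [-2.31 to -0.896]. The male sign at faint members depends on the limit: with the kinds parted at 200 reads per kb the value was -0.476 points [-1.17 to 0.224], an interval that holds 0. Parted at 100 reads per kb, the female value at dense members was 1.03 points [0.221 to 1.82]. With the WT lists shortened in this way, both differences at faint members turned to 1.74 and 1.23 points. The differences at dense members then stood at 22.4 and 23.3 points.

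The kinds differed at equal length too, though not in every class of length. Among members of 2200 to 2800 bp, the 1598 dense ones gave 4.69 points [2.57 to 6.72] in the female lines and 20.4 points [19.1 to 21.4] in the male lines. The 1705 faint ones of the same length gave -7.27 points [-8.99 to -5.40] and -1.17 points [-2.49 to 0.195]. At 3000 to 3800 bp the dense members gave 2.76 and 12.3 points and the faint members -6.85 and -3.18 points. One class of dense members ran the other way: the 378 of 1600 to 2000 bp gave -7.67 points [-13.2 to -1.79] in the female lines, and 22.8 points in the male lines. The 330 faint members of 4000 to 4800 bp gave 0 points in the male lines.

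Across 10 equal classes of H3K4me3 density the female KO list stood at 76.4% in the lowest class and 83.6% in the fifth. It dipped to 79.1% in the sixth and reached 95.7% in the highest. The male KO list stood at 91.9%, 93.1%, 93.5% and 99.4% in the same classes. The WT lists dipped more between the 2 kinds. Male WT was at 95.3% in the fourth class, 77.4% in the seventh and 91.3% in the tenth. Female WT was at 89.0% in the fifth, 81.9% in the sixth and 95.6% in the tenth. The widest gap between male KO and male WT, 17.8 points, lay in the seventh class, at 205 to 275 reads per kb. In the female lines KO and WT differed by 0.131 points in the highest class.

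**Figure D2:**
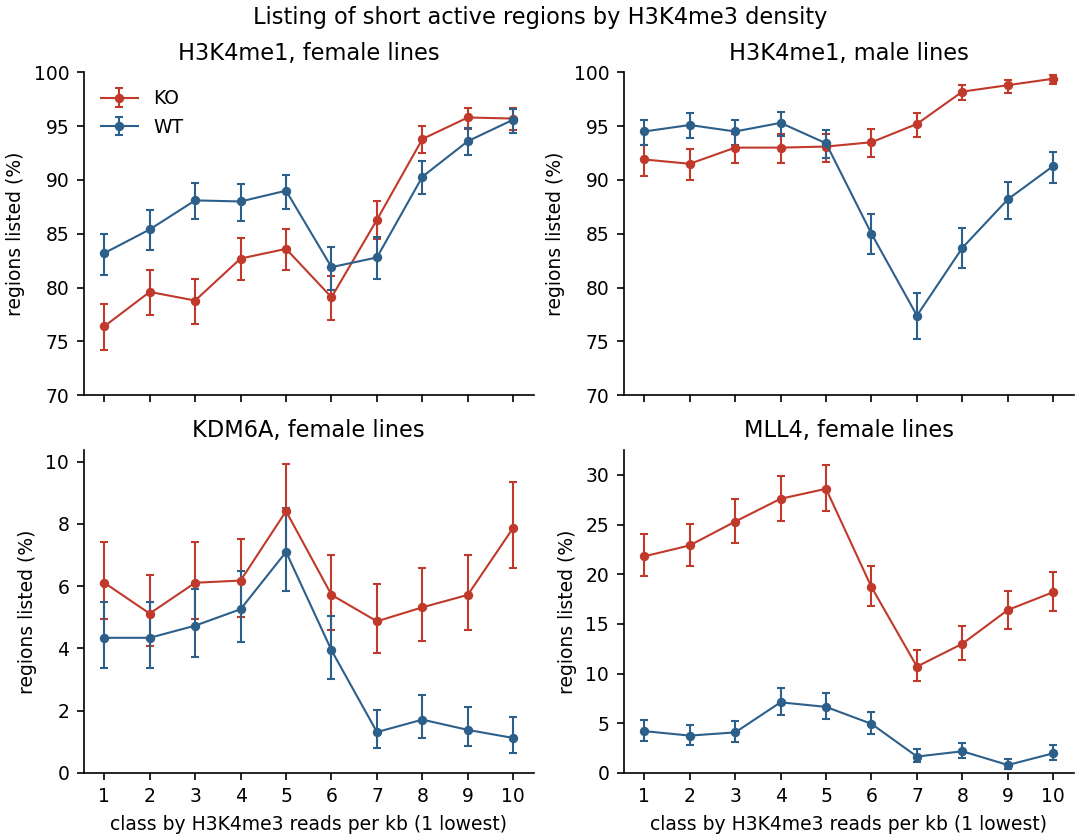
Share of short active regions listed (vertical axes, %) in KO (red) and WT (blue) by class of H3K4me3 density (horizontal axes, 10 classes of equal size), with 95% exact binomial intervals as bars; the axes for H3K4me1 start at 70%. Below the sixth class the H3K4me1 share is higher in WT, and from the seventh class up it is higher in KO, while KDM6A and MLL4 of WT are lowest in the dense classes.

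The listed H3K4me1 took a different shape at the 2 kinds of member. Most faint members lay wholly inside H3K4me1: 71.2% in female KO, 75.5% in female WT, 85.0% in male KO and 87.8% in male WT. Fewer than 1% of them had H3K4me1 at both ends and a gap inside, in each of the 4 lists. Dense members showed that gap far more often, in 20.6% of cases in female KO and 16% in female WT. In the male lines it was found in 25.9% in KO and 15.4% in WT. The uncovered part of dense members with such a gap had a median of 600 bp in all 4 lists. Neighbouring regions of each H3K4me1 list lay at least 400 bp apart, so a shorter gap could not be seen. Dense members thus more often had H3K4me1 on both flanks with a gap between, though the gap need not lie at the midpoint. They were also longer, with a median of 3400 bp against 1800 bp, which leaves more room for a gap. The kinds were not compared for this at equal length. Broad active regions had the gap more often still, at 43.6% in female KO, 38.9% in female WT, 51.9% in male KO and 43.3% in male WT.

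At dense members the KO lists covered more of the region. Dense members lay wholly inside H3K4me1 in 40.9% of cases in female KO against 27.9% in female WT, and in 48.7% in male KO against 28.0% in male WT. The midpoint was covered in 73.4% in female KO against 66.9% in female WT, and in 78.8% in male KO against 61.0% in male WT. H3K4me1 at 1 end alone was the commoner state in WT, with 26.8% in female KO against 36.5% in female WT and 20.7% in male KO against 34.5% in male WT. Of the 2536 dense members with H3K4me1 at 1 end in female WT, 946 were wholly covered in female KO and 571 had both ends with a gap. Of the 2397 such members in male WT, 993 were wholly covered in male KO and 698 had both ends with a gap. The reverse also occurred: of the 1937 dense members wholly covered in female WT, 389 kept H3K4me1 at 1 end in KO and 131 had none.

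**Figure D3:**
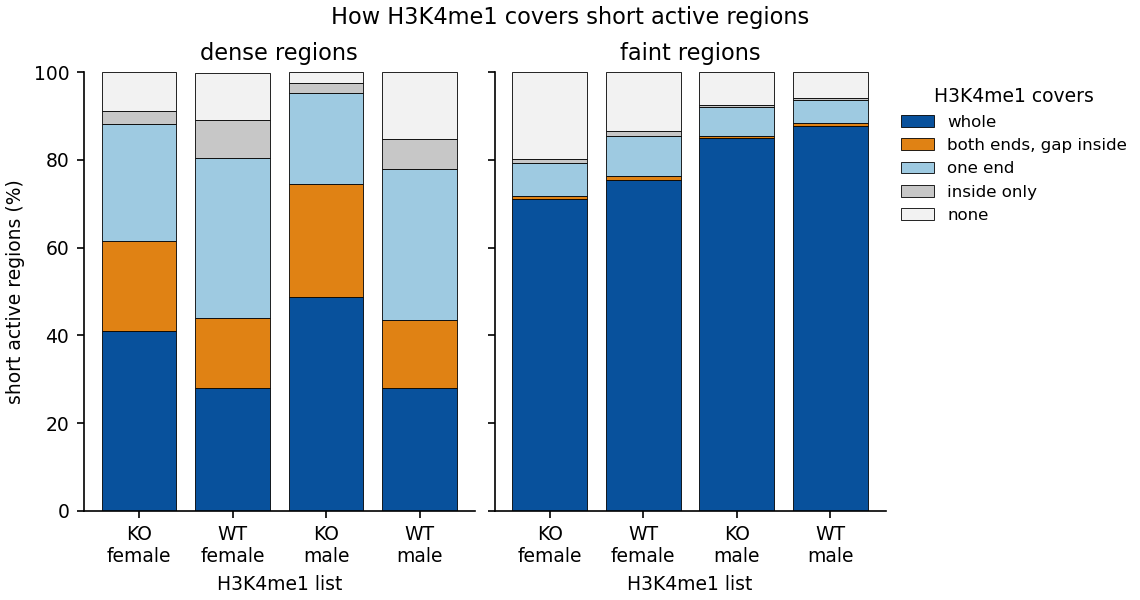
Share of dense (left) and faint (right) short active regions (vertical axis, %) by how the H3K4me1 list of each line covers them: wholly, at both ends with a gap inside, at 1 end, inside only, or not at all. Faint regions are mostly wholly covered in all 4 lists, and dense regions are wholly covered more often in KO (40.9% female, 48.7% male) than in WT (27.9% and 28.0%).

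The larger KO coverage at dense members ended near the region. At 2 kb before the midpoint, H3K4me1 was listed at 62.2% of dense members in female KO and 47.5% in female WT, and at 66.3% in male KO and 46.8% in male WT. At 6 kb before it the order had turned, with 17.6% in female KO against 21.2% in female WT and 19.3% in male KO against 20.4% in male WT. The other side of the midpoint gave like values. The stretch of H3K4me1 over a dense member, where listed in both genotypes, had a median of 5400 bp in KO against 4200 bp in WT in each sex. KO had the longer stretch at 3601 and WT at 2023 of 5831 such members in the female lines, and at 3804 and 1822 of 5813 in the male lines. At faint members the median was 6400 bp in both female lines, and 5600 bp in male KO against 7000 bp in male WT.

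**Figure D4:**
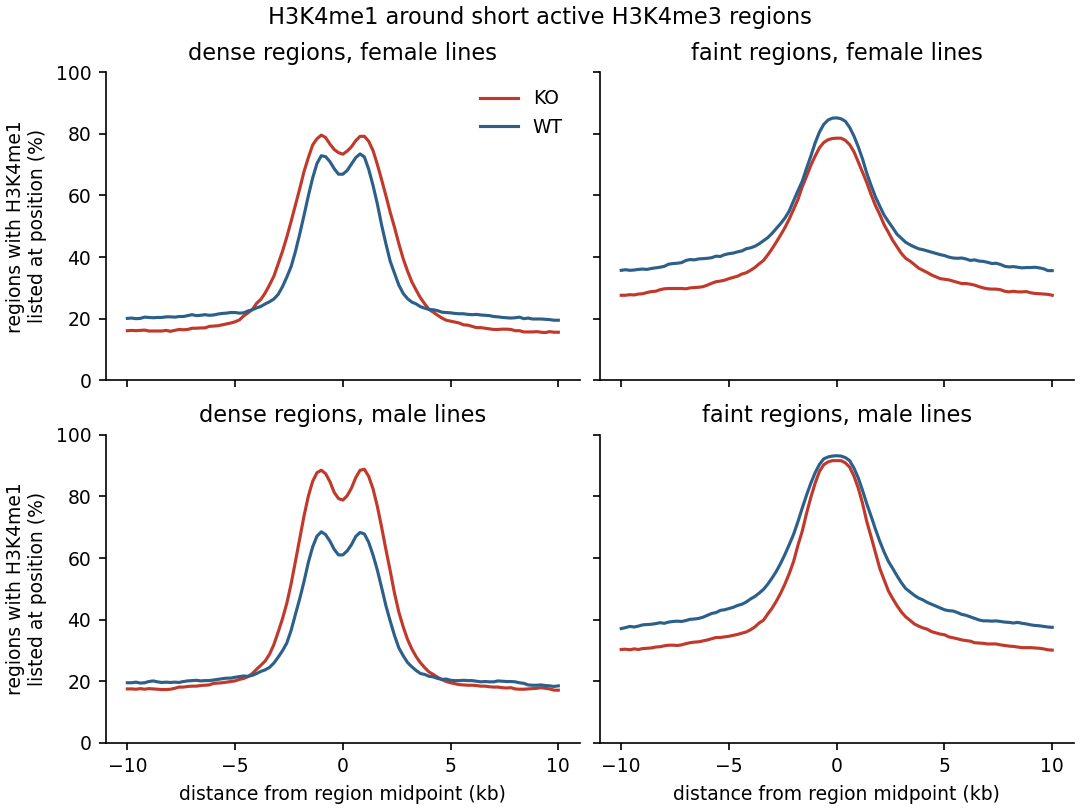
Share of short active regions with H3K4me1 listed (vertical axes, %) at each distance from the region midpoint (horizontal axes, kb), for dense (left) and faint (right) regions in the female (top) and male (bottom) lines, KO in red and WT in blue. Dense regions show shoulders with a dip at the midpoint and lie higher in KO near the region; faint regions show 1 peak and lie lower in KO on both sides.

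Chromosomes gave uneven values. At dense members the male difference was above 0 on 20 of 20 chromosomes, and the female one on 15. Chromosomes 14 and X stood apart in the male lines. On chromosome 14 H3K4me1 was listed at 99.3% of the 267 dense members in male KO and 49.1% [42.9 to 55.2] in male WT, while the female lines had 94.4% in KO and 92.9% in WT. On X it was listed at 87.7% of the 260 dense members in male KO and 49.6% [43.4 to 55.9] in male WT. Without both chromosomes the male difference at dense members was 10.1 points. In the female lines chromosome 15 stood apart, with H3K4me1 at 80.1% of its 246 dense members in KO and 95.1% in WT. At faint members the female difference was below 0 on 19 of 20 chromosomes, chromosome 5 being the exception at 4.81 points. The male one was below 0 on 13 and above 0 on 5.

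The X chromosome carried the members with the least H3K4me1. Its 410 members were 63.4% dense, the highest share of any chromosome, against 32.5% on chromosome 1. H3K4me1 met 50% [45.1 to 54.9] of them in female KO and 47.6% [42.6 to 52.5] in female WT. In the male lines it met 86.3% [82.6 to 89.5] in KO and 61.5% [56.6 to 66.2] in WT. Each of these 4 shares was the lowest of the 20 chromosomes in its list. KDM6A and MLL4 were at their lowest on X too, KDM6A at 0.488% of members in KO and 0.732% in WT, MLL4 at 3.41% in KO and 0.244% in WT. No source used here states how many copies of each chromosome these lines carry, and the part of copy number was not tested.

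**Figure D5:**
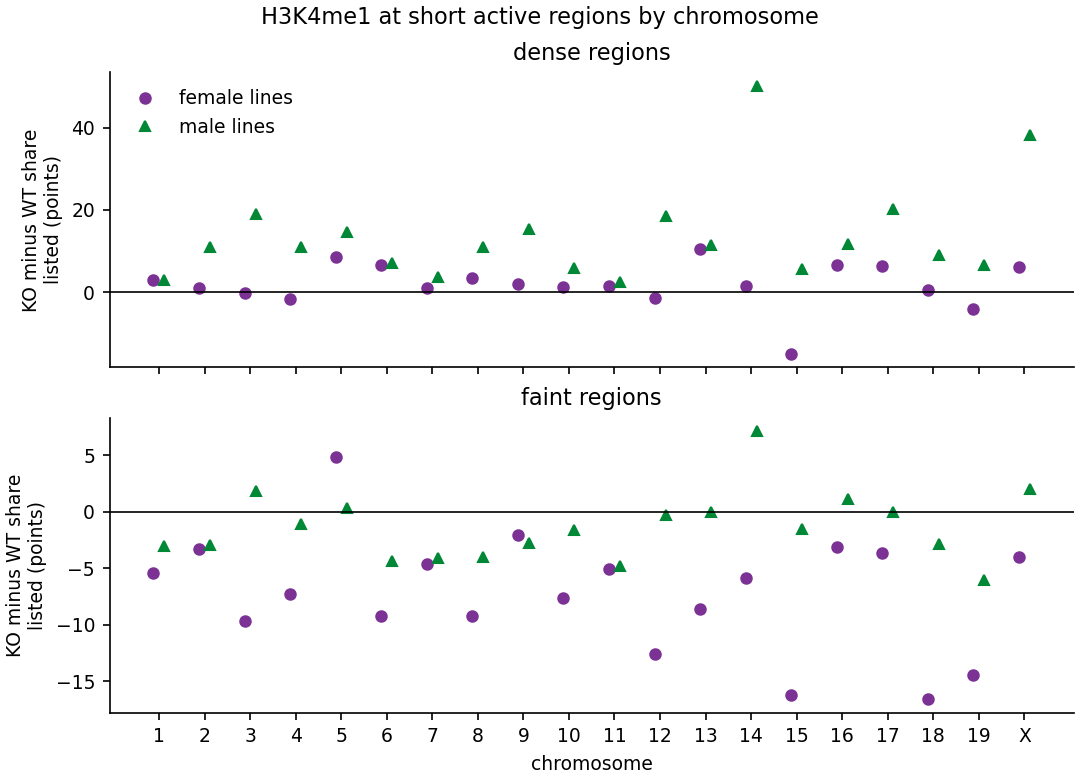
KO minus WT share of short active regions with H3K4me1 (vertical axes, percentage points) on each chromosome (horizontal axis) for dense (top) and faint (bottom) regions, female lines as circles and male lines as triangles. All male values at dense regions lie above 0, with 14 and X highest (50.2 and 38.1 points), and all female values at faint regions but that of chromosome 5 lie below 0.

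A small set of members differed between the genotypes in the same direction in both sexes. H3K4me1 was in both KO lists and neither WT list at 341 members, or 2.24% [2.01 to 2.49], against 2.60% of all H3K4me3 regions. It was in both WT lists and neither KO list at 241 members, or 1.58% [1.39 to 1.79], against 1.76%. The 2 sets differed in kind: 61.0% of those in KO alone were dense, and 217 of the 241 in WT alone were faint. KDM6A of the KO line was listed at 5 (1.47%) and MLL4 of the KO line at 11 (3.23%) of the 341 members. Neither antibody of the WT line was listed at any of the 341. Their choice largely fixed this, since nearly all members listed for either antibody in WT had H3K4me1 in female WT. Of the 241 members, KDM6A was listed at 3 (1.24%) in KO and 7 (2.90%) in WT, and MLL4 at 8 (3.32%) in each. The low shares of the KO antibodies in both sets were largely fixed by the choice as well. Of members with KDM6A of KO, 96.5% had H3K4me1 in female KO and 95.9% in female WT. With MLL4 of KO it was 97.6% and 95.8%. Over all members KDM6A met 6.14% in KO and 3.52% in WT, and MLL4 20.3% and 3.73%.

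Among members with H3K4me1 in both WT lists alone, the most H3K4me1 reads lay over chromosome 19, 10133801 to 10136000, where the listed stretches held 3442 reads in female WT and 3045 in male WT. It was followed by chromosome 15, 78683201 to 78686600, with 4055 and 1887 reads, and chromosome 11, 117169201 to 117170800, with 2786 and 2263. All were faint, at 39.1 to 47.9 H3K4me3 reads per kb. Among members with H3K4me1 in both KO lists alone, chromosome 17, 35199001 to 35200000, led with 728 reads in female KO and 1579 in male KO. Next came chromosome 15, 25687001 to 25689600, with 112 in female KO and 1623 in male KO. A member on chromosome 7, at 132678001 to 132680000, had 673 and 1034. These leading 3 were faint as well, unlike most of their set. The 3 members with the most H3K4me3 and no H3K4me1 in any list were dense: chromosome X, 106027201 to 106031800, with 1097 H3K4me3 reads, chromosome 4, 73896601 to 73899600, with 994, and chromosome X, 20001001 to 20004800, with 941.

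The KDM6A antibody listed few members. In KO 935 members, or 6.14% [5.77 to 6.54], met a KDM6A region, and in WT 536 members, or 3.52% [3.23 to 3.83]. Over all H3K4me3 regions, members included, the shares were close to these, at 6.11% in KO and 3.27% in WT. The members thus share the direction of the whole lists, against the KO label. In both lists were 91 members, or 17% [13.9 to 20.4] of those listed in WT, close to the 18.4% over all H3K4me3 regions. Listed in KO alone were 844 members (5.55%, against 5.51% of all H3K4me3 regions), and in WT alone 445 members (2.92%, against 2.67%). The members made up 15.9% [15 to 16.9] of the places of the KO list and 19% [17.5 to 20.5] of those of the WT list, counted as list regions that met a member. Once the KO list was shortened to the number of regions of the WT list, the difference was 0.0263 points in place of 2.62.

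KDM6A of the WT line lay mostly at faint members. It met 5.16% of faint and 1.57% of dense members in WT, while in KO it met 6.42% of faint and 5.82% of dense members. On the 15 chromosomes other than 1, 6, 15, 17 and 19, WT gave 4.58% [4.08 to 5.13] at faint members and 1.18% [0.908 to 1.50] at dense ones. There KO gave 3.91% [3.44 to 4.42] at faint members and 3.80% [3.31 to 4.34] at dense ones. So on these chromosomes the WT list favoured faint members, and the KO shares of the kinds had overlapping intervals. One of the 15, chromosome 14, had more of both antibodies in KO, with KDM6A at 9.22% of its members in KO against 3.65% in WT and MLL4 at 31.0% in KO against 4.87% in WT. In WT the regions of this antibody at members had a median of 48 reads, against 44 for those elsewhere.

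Both antibodies ran in a surplus along a few chromosomes, which earlier results of these data had shown and which the members shared. On chromosomes 1, 6 and 17, KDM6A met 17.8% of members in KO against 3.69% in WT, and MLL4 met 42.6% in KO against 3.28% in WT. On chromosomes 15 and 19, KDM6A met 4.56% in KO against 9.42% in WT, and MLL4 met 14.1% in KO against 10.1% in WT. On the remaining 15 chromosomes KDM6A met 3.86% in KO against 2.98% in WT, a difference of 0.875 points. MLL4 met 16.3% of members there in KO against 3.27% in WT, a difference of 13.0 points. The KO surplus of MLL4 was thus not confined to the few chromosomes.

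The leading members for KDM6A in WT and not in KO all lay on chromosome 15 and were faint. They were 64088801 to 64091200 with 243 reads in the KDM6A region, 13296001 to 13299200 with 212 and 64051401 to 64056000 with 183. The first also met an MLL4 region in both genotypes. For KDM6A in KO and not in WT the leading members were on chromosome 6, 71856601 to 71861200 and 149133401 to 149138200, each with 192 reads and both dense. Chromosome 15, 85176801 to 85179400, followed with 188 reads. MLL4 of KO was listed at all of these 3.

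MLL4, named KMT2D in the antibody label, was the binding list with the widest gap between genotypes. It met 3094 members, or 20.3% [19.7 to 21.0], in KO and 567, or 3.73% [3.43 to 4.04], in WT. Over all H3K4me3 regions, members included, MLL4 met 18.7% in KO and 3.80% in WT. The 2802 members of KO alone made up 18.4%, against 16.6% of all H3K4me3 regions, and the 275 of WT alone 1.81%, against 1.67%. Of the WT members, 51.5% [47.3 to 55.7] were also listed in KO, against 56.2% [52.9 to 59.4] over all H3K4me3 regions. MLL4 lay more often at faint members in both lines, 25.2% against 14.6% of dense ones in KO and 5.27% against 1.89% in WT. The same order held on the 15 chromosomes, with 21.5% of faint and 10.3% of dense members in KO and 4.74% and 1.61% in WT. On chromosomes 1, 6 and 17 MLL4 of KO met the kinds alike, at 42.5% of faint and 42.8% of dense members. Over the density classes MLL4 of KO peaked at 28.6% in the fifth class and was lowest, at 10.7%, in the seventh. The whole MLL4 list held 13152 regions in KO and 2130 in WT, and shortening the KO list to the length of the WT list left a difference of 1.68 points in place of 16.6.

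The leading MLL4 members of WT alone were chromosome 15, 83240201 to 83243600, with 204 reads, chromosome 15, 66975401 to 66980000, with 192, and chromosome 19, 15997001 to 16001000, with 151. The first met H3K4me1 regions of 821 reads in female KO and 8510 in female WT. In KO alone the leading ones were chromosome X, 166433201 to 166437200, with 295 reads, chromosome 6, 119972801 to 119975200, with 265, and chromosome 1, 43196801 to 43199600, with 258. The member on X was dense and had no H3K4me1 in either male list.

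Where KDM6A was listed, MLL4 was too far more often than elsewhere, in both lines. In KO, 65.2% [62.1 to 68.3] of the members with KDM6A had MLL4, against 17.4% [16.8 to 18] of the others. In WT it was 30.4% [26.5 to 34.5] against 2.75% [2.49 to 3.03]. The overlap was 19.7% of the MLL4 members in KO and 28.7% of those in WT. At faint members of KO the share reached 78.0%, and at dense ones 48.5%. Broad active regions had the same order, with 78.2% against 33.1% in KO and 40.6% against 7.75% in WT. Of the 935 members with KDM6A of KO, 435 lay on chromosomes 1, 6 and 17, where MLL4 of KO met 42.6% of members. Of the 536 of WT, 95 lay on chromosomes 15 and 19, where MLL4 of WT met 10.1%. The part of these chromosomes in the overlap was not tested. In all, 11335 members (74.5%) were listed for neither antibody in either genotype, and 33 had both in both. Among broad active regions, 52.3% were listed for neither antibody in either genotype. The leading members with both in WT were chromosome 15, 61277201 to 61279400, with 247 KDM6A and 134 MLL4 reads, followed by 66975401 to 66980000 and 64088801 to 64091200 on the same chromosome. In KO they were chromosome 6, 149133401 to 149138200, with 192 KDM6A and 238 MLL4 reads, chromosome 6, 119960001 to 119961400, and chromosome 1, 154976401 to 154978600.

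Members listed for either antibody nearly always carried H3K4me1 of the same line. Of the 536 members with KDM6A in WT, 99.3% had H3K4me1 in female WT, and all 567 with MLL4 in WT had it. In female KO the same sets had it at 88.2% and 91.5%. The part of the WT-listed H3K4me1 that was also found in KO was 88.3% [85.3 to 90.9] at members with KDM6A of WT and 88.5% [87.9 to 89.0] at the others. At faint members alone it was 87.6% [84.0 to 90.5] with KDM6A of WT and 83.3% [82.4 to 84.2] without. At dense members it was 91.5% [84.5 to 96.0] with KDM6A of WT and 94.3% [93.7 to 94.8] without. These intervals for KDM6A of WT overlapped over all members, at faint members and at dense members. For MLL4 of WT the kept share was 91.5% [88.9 to 93.7] with and 88.4% [87.8 to 88.9] without, over all members. At faint members the shares were 89.4% [86.2 to 92.2] and 83.2% [82.2 to 84.0]. At dense members they were 98.5% [94.6 to 99.8] and 94.1% [93.5 to 94.7]. All these intervals count regions within single libraries, so neither overlap nor its absence tests a difference. With MLL4 of KO the kept share was 97.9% [97.3 to 98.4] against 85.8% [85.1 to 86.5] without, and at faint members 97.2% against 78.2%. This split uses the line in which keeping was judged: 97.6% of members with MLL4 of KO had H3K4me1 in female KO. It thus largely restates that both were listed together there, and is not comparable with the splits by antibodies of WT. In the male lines, for which no list of either antibody was used, the members with MLL4 of female KO kept H3K4me1 in 98.9% of cases against 94.9%.

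Set beside other classes of region, the short active members held a middle place. Broad active regions, 3217 in number, carried H3K4me1 at 97.5% in female KO and 98.4% in female WT, MLL4 at 1269 regions in KO and 323 in WT, and KDM6A at 14.1% in KO and 6.96% in WT. Longer regions have more room to meet a listed region, so these shares are not per length. Of the broad active regions, 90.6% were dense. Their H3K4me1 difference was -0.933 points [-1.53 to -0.280] in the female lines and 0.933 points [0.495 to 1.26] in the male lines. The female sign was thus opposite to that of the dense members, at 2.07 points. The 3924 H3K4me3 regions with H3K27me3 carried H3K4me1 at 56.8% in female KO and 63.1% in female WT, and MLL4 at 4.28% in KO and 0.765% in WT. In the male lines they carried H3K4me1 at 82.6% in KO and 63.4% in WT, a difference of 19.2 points. The 2133 H3K4me3 regions without H3K27ac or H3K27me3, 6.38% of them dense, gave -6.84 points in the female lines and 18.2 in the male lines. A male value above 0 was thus not particular to dense members. The 9895 H3K27ac regions without H3K4me3 or H3K27me3, had H3K4me1 at 56.1% in female KO and 74.8% in female WT, a difference of -18.7 points [-19.8 to -17.6]. In the male lines that class gave 76.3% in KO and 87.2% in WT, a difference of -10.9 points. The faint members had values of the same sign, -6.52 and -1.61 points, which turned once the WT lists were shortened. That setting was not run for the acetylated class. With 1 library per group, no difference between these classes was tested. The intervals count regions within single libraries, so they cannot decide whether the classes differ.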

How the data were processed

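The deposited files are 1 list of regions per library, 11 lists for 12 libraries; the input library had no list used here. The submitters' processing notes name the build mm9 and the tools SICER 1 and Bowtie 1.1.2, with no role for either. Each line that the authors deposited gives a position and a whole number, taken here to be a read count because values and layout match SICER islands; no header names it. All borders lay on steps of 200 bp, and neighbours were at least 400 bp apart, or 600 bp for H3K27ac and 800 bp for H3K27me3. No source used here states control libraries, thresholds or total depth. A region missing from a list may hold signal below the threshold, and counts were not compared as levels between lists. Reads in regions ranged from 108165 (MLL4, WT) to 17526099 (H3K4me3).

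A member counted as listed when at least 1 bp met a region of a list. The interval of a KO minus WT difference rests on the members listed in 1 genotype alone. Named members were those with the most reads under a fixed rule: 5 for H3K4me3 and 3 for each pattern of KDM6A, MLL4 and H3K4me1. Members, rule, and the chromosomes left out in alternatives were chosen with earlier results of these data known, and the limit of 150 reads per kb after its values were seen. Positions count from 1, in mm9. The gene table at hand is of GRCm38, and lists reached beyond its last gene end on 10 of 20 chromosomes, so no gene was assigned and the gene lists prepared were not used. The overlap step was tested on simulated data and against bedtools 2.31.1. Python 3.11.15, numpy 2.4.6, pandas 2.3.3, scipy 1.17.1 and matplotlib 3.10.9 were used.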

Additional observations from a re-analysis of the deposited data

Results flagged for a closer look

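Over all 15218 short active regions, the KO minus WT difference in H3K4me1 listing had opposite signs in the 2 sexes, at -2.60 percentage points in the female lines and 4.93 in the male lines. Each sex had 1 KO and 1 WT library, so the difference between the sexes was not tested.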

How the results depend on the processing

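Values below are KO minus WT differences in percentage points unless a share is named; of 98 values under alternatives, 45 stayed within the interval of the reported value, 46 left it with the same sign and 7 turned. Merging neighbours within 1 kb moved none out of its interval, and widening by 1 kb moved MLL4 alone, to 17. With at least 50% of the member covered, H3K4me1 gave -0.473 (all) and 6.77 (dense) in the female lines and 9.21 and 22.1 in the male lines, KDM6A 1.44 and MLL4 9.92; the kept shares of WT H3K4me1 were 85.9% (female) and 94.7% (male). Keeping in every H3K4me1, KDM6A and MLL4 list only regions with reads at or above its median gave -1.93 (all), 6.22 (dense) and -8.77 (faint) in the female lines, 8.81, 26.1 and -5.73 in the male lines, 1.61 for KDM6A, 11.1 for MLL4 and kept shares of 75.3% and 86.2%. A length limit of 3000 bp gave -4.60 (female), 3.41 (male), 20.7 (male, dense), 1.55 (KDM6A) and kept shares of 83.5% and 94.0%. Without chromosomes 1, 6, 15, 17 and 19 the values were -1.90 (female), 5.83 (male), 13.8 (male, dense), 0.875 (KDM6A) and 13.0 (MLL4). For these settings the cause was not tested.

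Lists of a pair cut to the same number turned signs, and the cut takes regions from the longer list alone, that of WT for H3K4me1 and that of KO for KDM6A and MLL4. The values became 11.2 (all), 22.4 (dense) and 1.74 (faint) in the female lines, 11.3, 23.3 and 1.23 in the male lines, 0.0263 for KDM6A and 1.68 for MLL4, with a female kept share of 89.2%. Alternatives added after seeing the data were the same cut without those 5 chromosomes, other limits between faint and dense, and leaving out chromosomes 14 and X. The first gave 11.6, 22.4 and 2.10 (female), 11.9, 23.6 and 1.43 (male), -0.314 (KDM6A), 0.866 (MLL4) and a female kept share of 89.8%. Parting the kinds at 100 reads per kb gave 1.03 (female, dense) and 11.4 (male, dense), and at 200 reads per kb -0.476 (male, faint). Without chromosomes 14 and X the male values were 3.46 (all) and 10.1 (dense). No paired analysis was possible because each group held 1 library. With unknown depth, a member absent from a list may still carry the mark.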
